A study of Homo sapiens with 22 samples.

Results

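The HOX gene clusters are the 4 arrays of homeobox transcription factor genes on human chromosomes 7 (HOXA), 17 (HOXB), 12 (HOXC) and 2 (HOXD). They were followed here through the chromatin of K562 cells, an established human leukemia line, during treatment with the phorbol ester PMA. The members were the regions of the authors' 4 count tables that overlapped the RefSeq span of any of 38 HOX genes, extended by 10 kb on each side: 10 genes of HOXA, 10 of HOXB, 9 of HOXC and 9 of HOXD. This gave 162 regions of 409446 in all, of which 40 came from the H3K27ac table, 30 from CTCF, 45 from Jun and 47 from Rad21. By cluster, HOXA held 17 of them, HOXB 74, HOXC 45 and HOXD 26. Regions were matched to the genes by position alone, while the genes were chosen with earlier results of these data known. A filter on low counts passed all 40 H3K27ac regions, 29 of 30 for CTCF, 41 of 45 for Jun and 43 of 47 for Rad21.

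The 22 libraries were CUT&RUN libraries, in which an antibody guides a nuclease to cut out the DNA beside its target. K562 cells received 25 nM PMA, known to push these cells to resemble megakaryocytes, for 0, 6 or 72 h, were fixed with 1% formaldehyde for 10 min and were taken in aliquots of 500000. Antibodies against H3K27ac, CTCF and Jun were used at 0, 6 and 72 h and an antibody against Rad21 at 0 and 72 h, with 2 libraries in each of the 11 groups. All groups are the same line without a genotype change, so each value describes this line alone. The labels do not say that libraries of a group came from separate cultures, and the p-values then measure only the spread between these libraries. Reads in the counted regions ranged from 12634261 to 27266241 per H3K27ac library, 2553677 to 6068421 for CTCF, 4766421 to 18883962 for Jun and 4398797 to 7285286 for Rad21. All 8 erythroid markers on the list used to check the line had an H3K27ac region at their gene, among them EPOR, the erythropoietin receptor, with a mean of 43.1 CPM (read counts scaled to library size) at 0 h. The brightest region of each of the 8 fell by 72 h. Of 6 megakaryocyte markers, ITGB3, an integrin subunit, rose and the other 5 fell. Of 5 markers of other cell types, 4 had a region within 10 kb, among them ALB, the liver gene for albumin, with 1.07 CPM at 0 h. The part of these shifts in the HOX values was not tested.

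HOX proteins bind DNA and give cells their identity along the body axis. In each array the genes lie in the order in which they act, with the low-numbered genes at one end and the high-numbered, posterior-acting genes at the other. Active arrays carry acetylated histone H3 at lysine 27 (H3K27ac), a mark of active promoters and enhancers, and silent arrays are held by Polycomb proteins. CTCF, an insulator protein, binds between the genes and, with the cohesin ring that contains Rad21, marks the edges of chromatin loops. Jun is a subunit of AP-1, a transcription factor that phorbol esters activate. In blood cells, HOX genes are known for their activity in progenitors and in leukemia. RNA was not analysed here.

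The clusters also hold microRNA genes and antisense transcripts, and some of them lie in or beside the regions that changed. The mature microRNAs are shown first because 3 of the regions described here lie over or next to their hairpins. Sequences are those of RefSeq on GRCh38.p14, with the seed (bases 2 to 8) in capitals.
hsa-miR-10a-5p: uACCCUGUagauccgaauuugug
hsa-miR-196a-5p: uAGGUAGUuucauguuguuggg
hsa-miR-196b-5p: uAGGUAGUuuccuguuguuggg
The miR-196a and miR-196b forms share the seed AGGUAGU, and miR-10a has the seed ACCCUGU. The MIR10A hairpin (chr17:48579838-48579947, minus strand) lies inside the brightest H3K27ac region of all 4 clusters. The MIR196A1 hairpin lies 879 bases from the outermost H3K27ac region in the HOXB9 window. The MIR196A2 hairpin in HOXC lies 1398 bases from the H3K27ac region that rose at HOXC10. The MIR196B hairpin in HOXA lay in no region of any table.

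Promoter windows, from 250 bases before to 50 after a start site, were given for 20 of the 38 genes: 9 of HOXA, 1 of HOXB, 2 of HOXC and 8 of HOXD. Among them, only the window of HOXA10 overlapped a region of any antibody, a weak CTCF region. In HOXB, windows of 3 antisense genes lay under H3K27ac regions. The window of HOXB-AS4 (chr17:48628448-48628747, plus strand) is shown because it sits in the bright region beside HOXB9 whose H3K27ac fell by 3.19 times, and that of HOXB-AS2 (chr17:48555907-48556206, plus strand) because H3K27ac, Jun and Rad21 regions all overlap it.
HOXB-AS4: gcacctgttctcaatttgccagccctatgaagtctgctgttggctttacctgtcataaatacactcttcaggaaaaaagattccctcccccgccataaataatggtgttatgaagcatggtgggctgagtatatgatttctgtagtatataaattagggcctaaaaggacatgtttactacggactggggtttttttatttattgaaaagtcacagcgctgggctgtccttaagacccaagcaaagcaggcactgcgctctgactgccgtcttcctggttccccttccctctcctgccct
HOXB-AS2: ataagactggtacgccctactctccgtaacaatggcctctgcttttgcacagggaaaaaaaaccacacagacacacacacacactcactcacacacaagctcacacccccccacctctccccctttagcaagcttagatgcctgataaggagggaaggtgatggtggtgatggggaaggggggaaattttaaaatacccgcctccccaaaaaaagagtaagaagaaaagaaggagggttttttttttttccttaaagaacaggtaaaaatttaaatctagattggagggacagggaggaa
Neither window held the AP-1 motif TGANTCA on either strand, and neither held the letters searched as a part of the CTCF core motif. The AP-1 motif was in none of the 52 distinct windows of the clusters and in 7.71% of the 35116 RefSeq windows of the same length. The CTCF letters were in 15 of the 52 and in 15.2% of all windows.

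The 4 clusters differed widely in their H3K27ac before treatment, as the plot of summed signal shows. The 26 HOXB regions summed to 1013 and 1047 CPM in the 0 h libraries, and the 10 HOXC regions to 204 and 207 CPM. The 3 HOXA regions summed to 0.511 and 0.632 CPM, and the single HOXD region to 0.284 and 0 CPM. Per kilobase of covered sequence, mean H3K27ac at 0 h was 41.6 CPM in HOXB, 21.6 in HOXC, 0.699 in HOXA and 0.542 in HOXD. H3K27ac peaks found in both libraries of a time were absent from HOXA and HOXD at all 3 times, while HOXB held 15, 12 and 16 and HOXC 5, 4 and 6 at 0, 6 and 72 h. The order was different for CTCF, of which HOXD held 246 and 263 CPM at 0 h, HOXB 155 and 159, HOXC 119 and 108, and HOXA 84.1 and 81.2.

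**Figure D1:**
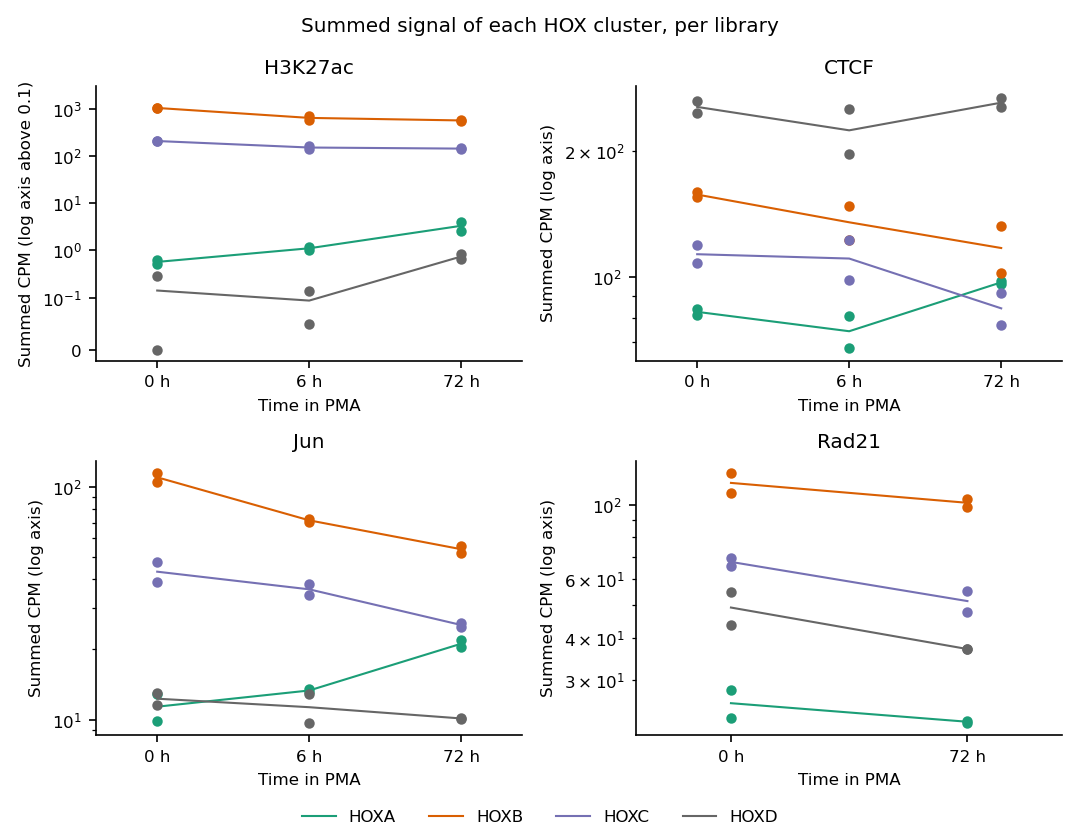
Summed CPM of each HOX cluster (coloured lines join group means, points are single libraries) against time in PMA, for each antibody, on log axes (the H3K27ac axis is linear below 0.1). HOXB falls from 1013 and 1047 CPM of H3K27ac to 535 and 586, while HOXA and HOXD stay under 5 CPM.

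By 72 h the acetylated clusters had lost H3K27ac, and the few weak regions of the nearly bare ones held slightly more. Those weak regions had hardly any reads at 0 h, so their sums had little room to fall. The HOXB sum was 581 and 689 CPM after 6 h of PMA and 535 and 586 CPM after 72 h. No later library overlapped those of 0 h, and the mean was 1.84 times lower at 72 h. The HOXC sum was 139 and 161 CPM, then 139 and 146 CPM, and ended 1.45 times below its start. HOXA went to 1.19 and 1.03 CPM and then to 4.05 and 2.59 CPM, and HOXD to 0.140 and 0.0492 and then 0.652 and 0.838 CPM, so both remained far below HOXB and HOXC. Most of the HOXB loss was present by 6 h. A lower level in a population can mean fewer cells with the mark or less of it per cell, and these cannot be told apart here.

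Region by region, 29 of the 40 HOX H3K27ac regions fell and 5 rose between 0 and 72 h at an adjusted p under 0.05 (edgeR quasi-likelihood test, Benjamini-Hochberg over all 94865 regions tested). Over all those regions 38.1% fell and 43.4% rose, 81.5% in either direction, so change itself was as common elsewhere. The median log2 fold change was -0.71 over the HOX regions and 0.18 over all regions. Of the 5 HOX regions that rose, 3 lay in HOXA and 1 in HOXD, where reads at 0 h were few. At 6 h, 25 of 40 were lower and 1 higher than at 0 h, against 26.3% lower and 32.3% higher of all regions (58.6% in either direction), with medians of -0.54 and 0.20. Between 6 and 72 h, 15 fell and 7 rose, against 30.8% and 33.1% of all (63.8% in either direction). With libraries scaled to total counts, which moves the median of all regions at 72 h from 0.18 to 0.42, the split was 26 lower and 7 higher at 72 h and 14 lower and 4 higher at 6 h. With scaling by a loess trend on abundance the split at 72 h was 28 lower and 3 higher.

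In HOXB, 22 of 26 regions fell by 72 h and none rose, also without adjustment of the p (edgeR), while DESeq2 called 20 lower and none higher; under total-count scaling 20 fell and 2 rose, and under loess scaling 21 and 1. CTCF sites, which divide the clusters into stretches, are named here by the cluster's letter and their order by rising coordinate. The stretch of largest loss ran from HOXB9 outward, between sites B-4 (chr17:48618463-48619216) and B-5 (chr17:48724477-48724969). Only the parts of this stretch within 10 kb of HOXB9 or HOXB13 lay in the windows. Its 6 regions summed to 265 and 272 CPM in untreated cells, then 124 and 151, then 76.1 and 75.6 after 72 h. All 6 fell, with log2 fold changes from -2.82 to -1.08, and their sum was 3.53 times lower at 72 h. The 16 regions before site B-1, from the HOXB1 side to HOXB4, summed to 636 and 662 CPM, then 378 and 457, then 376 and 413, or 1.64 times lower at 72 h. In this anterior stretch the 6 h and 72 h libraries overlapped. From HOXB9 outward, 5 of the 6 regions, all but the one over site B-4, had fallen by 6 h, and all 6 fell between 6 and 72 h. These stretches were drawn after the values were seen, and their sums were not tested.

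The bright region beside HOXB9 (chr17:48626437-48629060, outside the gene's span and over a start of HOXB-AS4) went from 135 and 142 CPM to 65.2 and 82.1 and then 42.2 and 44.5 at the 3 times. Its log2 fold change over 72 h was -1.67 (SE 0.11, adjusted p = 7.6e-13). Farther out, chr17:48630012-48630807 went from 52.9 and 52.7 CPM to 21.6 and 24.4 and then 11.5 and 10.9 (log2 fold change -2.23, SE 0.11, adjusted p = 2.2e-15). In both of these regions the libraries of the 3 times did not overlap. The outermost region in the HOXB9 window was chr17:48631005-48631611, the one nearest MIR196A1. It went from 37.7 and 37.8 CPM to 12.2 and 18.2 and then 8.36 and 8.89 (log2 fold change -2.13). A small region between the first and second of these, chr17:48629732-48629947, had the largest fall of any HOX H3K27ac region, from 15.2 and 16.3 CPM to 2.75 and 1.71 (log2 fold change -2.82, SE 0.20). All 4 were called in each of 13 alternative fits. The authors' deposited table labels the 3 outer ones downEarly, and among the 40 H3K27ac regions it labels 36 static.

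The brightest HOX region of all was chr17:48578177-48581000, which covers part of HOXB3, HOXB4 and the MIR10A hairpin. It held 156 and 160 CPM in untreated cells, then 88.9 and 106, then 90.7 and 107, with every later library below both of 0 h. The log2 fold change over 72 h was -0.68 (SE 0.11, adjusted p = 6.2e-06). Loess scaling, which corrects a trend with brightness, moved this value to 0.05 and ended the call. At chr17:48546854-48548412, between HOXB2 and HOXB3, 122 and 127 CPM became 61 and 73 and then 63.6 and 76.6 (log2 fold change -0.83, SE 0.11). The smallest called fall in HOXB, at chr17:48544210-48544440 in HOXB2, over the start of HOXB-AS1, ran from 15.2 CPM in both libraries to 11.8 and 12.1 (-0.35, adjusted p = 0.022), and was lost without any single library of 0 or 72 h.

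Not all of HOXB followed. The region in the HOXB6 span, chr17:48603170-48605643, dropped from 55.8 and 57.5 CPM to 42.3 and 40.7 at 6 h (log2 fold change -0.45, adjusted p = 9.6e-04) and stood at 52.8 and 61.7 after 72 h, on both sides of its starting level (0.01, SE 0.10). It is also the brightest region within 10 kb of HOXB5, HOXB7 and HOXB8. The region on the HOXB1 side, chr17:48521696-48523070, likewise went from 10.7 and 9.70 CPM to 6.16 and 5.96 and back to 10.1 and 9.83. Both rose between 6 and 72 h, the only HOXB regions to do so. One region inside HOXB3, chr17:48570436-48571355, moved the other way first, from 13.1 and 12.8 CPM to 15.1 and 18.2 and then 9.30 and 10.6. It was the single HOX region called higher at 6 h (log2 fold change 0.37, adjusted p = 0.027), and the call was lost with DESeq2, without either library of 0 h and without the second library of 6 h (0.20). Between chr17:48585345 and chr17:48602804, across HOXB5 and most of the HOXB6 span, no H3K27ac region was present over 17.458 kb, and CTCF sites overlap the regions at both borders of this gap.

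**Figure D2:**
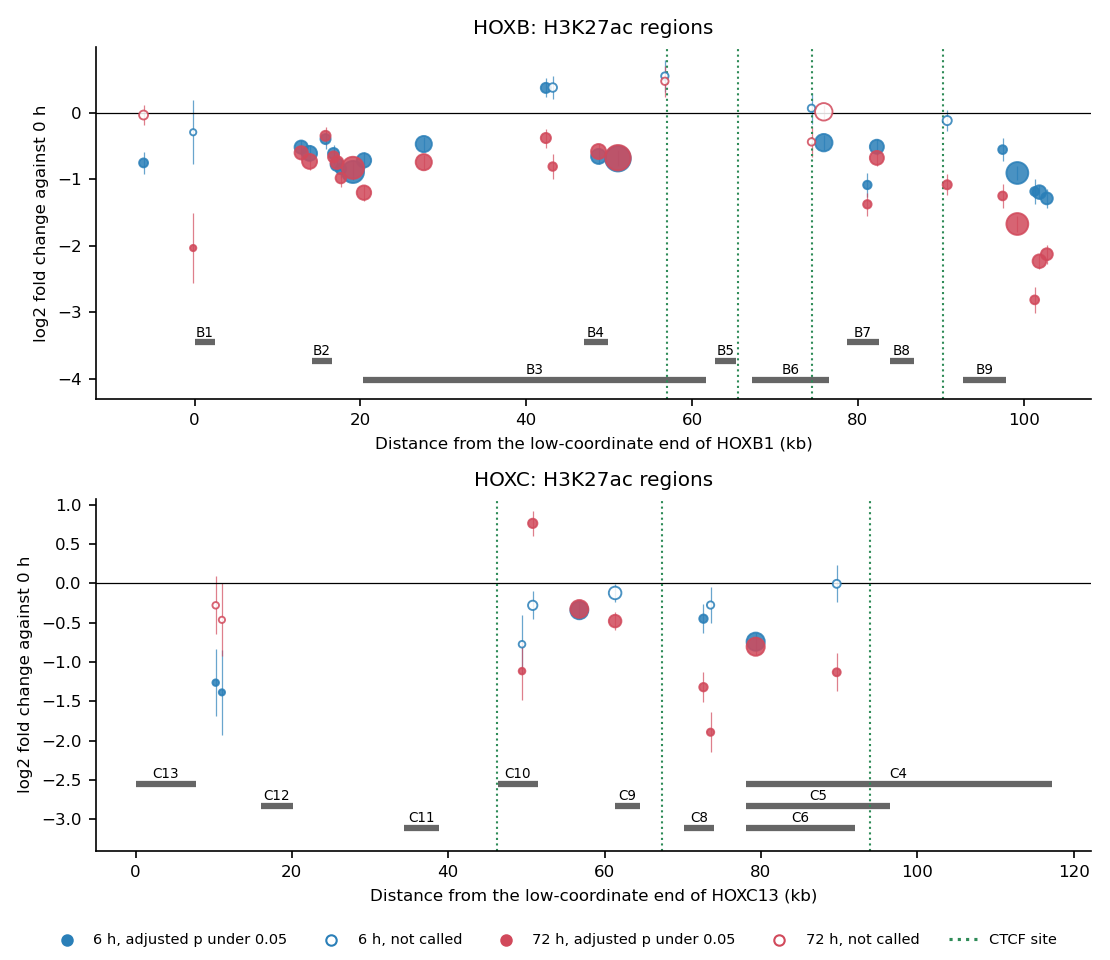
Log2 fold change of H3K27ac against 0 h (points with SE bars, area growing with mean CPM, filled where the adjusted p was under 0.05) along HOXB and HOXC, with gene spans as grey bars and CTCF sites as dotted lines; HOXB13 lies beyond the axis. The lowest HOXB points past HOXB9 reach -2.82, and the HOXC10 region stands above 0 at 72 h.

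In HOXC, 7 of 10 regions fell and 1 rose by 72 h, and 5 fell and none rose by 6 h. The region at the shared span of HOXC4, HOXC5 and HOXC6, chr12:54017203-54019115, was the brightest, at 77.0 and 80.3 CPM, then 42.4 and 51.4, then 45.4 and 44.7 (log2 fold change -0.80, SE 0.11, adjusted p = 1.9e-07). In the HOXC8 span, chr12:54012106-54012668 went from 5.00 and 5.27 CPM to 4.20 and 4.28, without a call at 6 h, and to 1.38 in both libraries of 72 h (log2 fold change -1.89, SE 0.25). The neighbouring chr12:54011024-54011936 fell from 9.77 and 9.91 CPM to 3.80 and 4.08. The 4 regions between CTCF sites C-2 and C-3, over HOXC8 to HOXC6, all fell and summed to 1.88 times less at 72 h than at 0 h.

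Toward the posterior side, the region between HOXC9 and HOXC10, chr12:53994697-53996505, moved less, from 65.5 and 62.1 CPM to 45.6 and 54.7 and then 49.4 and 52.5 (log2 fold change -0.32, adjusted p = 0.0075). Its direction depended on the scaling: loess turned the value at 72 h to 0.20, a call in the other direction, and that at 6 h from -0.34 to 0.10. Both calls were also lost without the first library of 0 h or the first of the later time. The one HOXC region that rose was chr12:53988939-53990340 in the HOXC10 span, the one nearest MIR196A2. It held 8.23 and 8.91 CPM, then 8.05 and 6.25, then 13.1 and 16.0, with both 72 h libraries above the other 4 (log2 fold change 0.76, SE 0.16, adjusted p = 1.1e-04), and was called in all 13 alternative fits. At the far end, near HOXC13, the weak region chr12:53949744-53950027 had the largest fall at 6 h, from 1.25 and 1.16 CPM to 0.350 and 0.541 (-1.39, adjusted p = 0.030), a call that 6 of 12 alternative fits kept. Between it and HOXC10, across HOXC12 and HOXC11, no H3K27ac region was present over 38.1 kb.

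All 3 HOXA regions and the HOXD region were called higher at 72 h, at levels near the bottom of the table: the median HOXA region stood at percentile 8.33 of mean CPM among all regions and the HOXD region lower still, against a median of 84.2 in HOXB. The 3 HOXA regions lie in the HOXA3 span beside HOXA4 and HOXA5. The first, chr7:27134141-27134373, had 3 reads over both libraries of 0 h and 43 over both of 72 h, a ratio per library size of 9.52 (95% exact interval 3.05 to 48.0, counting error only). The second, chr7:27135896-27136180, had 9 and 72 reads, a ratio of 5.31 (2.65 to 12.1), and the third, chr7:27136217-27136516, had 9 and 68 reads, a ratio of 5.02 (2.49 to 11.4). The HOXD region, chr2:176176017-176176278, just beyond the HOXD3 span, had 5 reads at 0 h and 41 at 72 h, a ratio of 5.45 (2.15 to 17.7). With so few reads at 0 h, all 4 regions passed the filter on low counts through later libraries, which favours a rise. The calls and the intervals do not allow for this. Without the first library of 72 h the latter 2 HOXA regions were not called (1.92 and 1.61 in place of 2.38 and 2.30 on the log2 scale), nor was the HOXD region without the second library of 0 h or either of 72 h, or with DESeq2. Under loess scaling none of the 4 was called, and the HOXD value turned from 2.39 to -0.24. The authors' deposited table labels the first of them upLate.

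CTCF had few calls in the clusters, as over all regions. Its libraries held fewer reads than those of H3K27ac, so the numbers of calls cannot rank the 2 by steadiness. Summed CTCF had a log2 ratio at 72 h against 0 h of -0.42 in HOXB and -0.43 in HOXC, where H3K27ac had -0.88 and -0.53. In HOXA and HOXD the CTCF ratio was 0.23 and 0.03. No HOX region of 29 tested was called between 0 and 6 h, against 2.65% of all 58156 regions, 2.33% higher and 0.325% lower (edgeR; 1 had an unadjusted p under 0.05, and DESeq2 called none). Between 0 and 72 h, 2 rose and 1 fell, against 4.07% and 2.72% of all (6.79% in either direction); DESeq2 called 1 lower and none higher. Between 6 and 72 h 1 rose and 1 fell, against 0.449% and 1.73% of all (2.18% in either direction). Median log2 fold changes at 72 h were -0.08 over the HOX regions and 0.03 over all. None of the 3 was called in any of the 4 fits that each left out 1 library of 0 or 72 h, and fits without 1 library of 6 h gave 5 calls.

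Of the 30 CTCF regions, 19 held a peak in both libraries of at least 1 time and are the sites named here: 3 in HOXA, 5 in HOXB, 3 in HOXC and 8 in HOXD. Peaks were present at all 3 times at 13 of the 19 (68.4%), where the same was true of 12765 of the 29242 sites of the whole table (43.7%). An H3K27ac peak of any time overlapped 1 of the 19 (5.26%), B-4, against 21.6% of the 29242 sites. Gaps between neighbouring sites of the windows ran from 1.497 kb in HOXD to 105.26 kb in HOXB, the latter across HOXB9 and the stretch before HOXB13. The part of this largest gap farther than 10 kb from both genes lay outside the windows, so CTCF regions there were not counted. HOXD had the densest and brightest array, led by site D-7 between HOXD8 and HOXD9 (chr2:176126933-176127654), which held 65.8 and 75.1 CPM, then 46.6 and 72.0, then 47.9 and 51.3. Site D-1 beyond HOXD13 (chr2:176079501-176080386) held 57.4 and 49.8 CPM, then 34.6 and 47.2, then 70.5 and 66.6. Both D-7 and D-1 were without a call, and their libraries of 0 and 72 h did not overlap, in opposite directions.

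**Figure D3:**
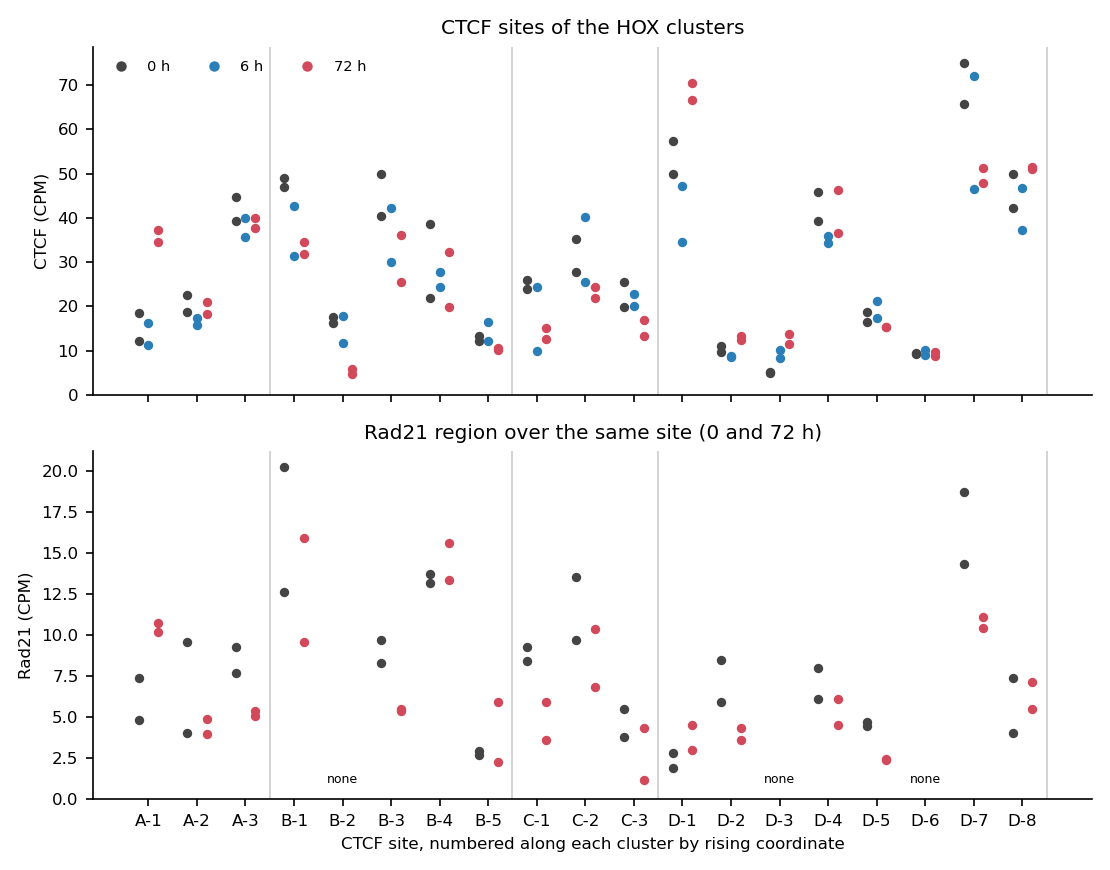
CTCF signal (upper panel) and Rad21 signal in the overlapping region (lower panel) in CPM at each of the 19 CTCF sites, one point per library, coloured by time in PMA; none marks a site without a Rad21 region. Site A-1 rises to 37.3 and 34.6 CPM at 72 h and site B-2 falls to 4.84 and 5.90.

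Site A-1 (chr7:27135996-27136767), in the HOXA3 span between HOXA4 and HOXA5, showed the clearest rise. It held 18.6 and 12.3 CPM of CTCF in untreated cells, then 11.3 and 16.3, then 37.3 and 34.6. The 72 h libraries stood above all others, with a log2 fold change of 1.196 against 0 h (SE 0.28, adjusted p = 0.021) and 1.39 against 6 h (SE 0.29, adjusted p = 0.013). Both other HOXA sites were level: A-2, between HOXA7 and HOXA9, held 22.7 and 18.8 CPM at 0 h and 18.2 and 20.9 at 72 h, and A-3, in HOXA13, 39.3 and 44.7 and then 39.9 and 37.6.

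Site B-2 (chr17:48593793-48594284), just beyond the HOXB5 span, showed the only called fall. It held 16.3 and 17.7 CPM, then 11.7 and 17.9, then 4.84 and 5.90 (log2 fold change -1.64, SE 0.33, adjusted p = 0.012), and had a peak in both libraries at 0 h only. It lies inside the stretch of HOXB without H3K27ac regions, and no Rad21 region overlapped it. The sites on either side of it were lower at 72 h without a call: B-1, in HOXB3, went from 48.9 and 46.9 CPM to 34.6 and 31.7 and B-3, in HOXB6, from 49.96 and 40.4 to 36.2 and 25.6 (log2 fold changes -0.53 and -0.56, adjusted p = 0.18 for each). Site D-3 (chr2:176088240-176088686), at the edge of HOXD13, rose from 5.10 and 5.05 CPM to 8.42 and 10.2 at 6 h and 13.8 and 11.5 at 72 h (log2 fold change 1.31, SE 0.36, adjusted p = 0.039), and had a peak in both libraries at 72 h only. All 3 HOXC sites had values below 0, between -0.83 and -0.45, and none was called.

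Rad21 stood lower over most of these sites at 72 h, without a call at any of them. Rad21 peaks of both libraries overlapped 11 of the 19 CTCF sites at 0 h and 4 at 72 h (57.9% and 21.1%); over all 29242 sites the shares were 38.4% and 26.6%. The log2 fold change of Rad21 was below 0 at 11 of the 16 sites with a tested Rad21 region, with a median of -0.54. Of 43 tested HOX Rad21 regions, 2 fell and 1 rose, against 7.91% and 15.4% of all 83750 (23.3% in either direction), and DESeq2 called none (9 were lower and 3 higher at an unadjusted p under 0.05 with edgeR). The median over the HOX regions was -0.42 and over all regions -0.05. Under total-count scaling, which moves the median of all regions to -0.25, 6 fell and none rose.

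At site D-7, the brightest of HOXD for Rad21 too, 18.7 and 14.4 CPM at 0 h became 10.4 and 11.1 at 72 h (log2 fold change -0.63, adjusted p = 0.09). Site A-1 went the other way, from 7.39 and 4.85 CPM to 10.7 and 10.2 (0.75, adjusted p = 0.087), without overlap and without a call. The called falls lay beside HOXB9: chr17:48626360-48626919 went from 14.8 and 15.2 CPM to 9.08 and 7.35 (log2 fold change -0.86, SE 0.28, adjusted p = 0.028), and chr17:48631303-48631581 from 7.23 and 5.28 to 2.68 and 2.262 (-1.34, SE 0.42, adjusted p = 0.024). The called rise, at chr17:48577433-48577743 in HOXB4, rested on 3.93 and 0.633 CPM at 0 h against 6.55 and 6.41 at 72 h. Without single libraries the first fall was lost in all 4 fits, the second in 3, all but the one without the second library of 0 h, and the rise in 3, all but the one without the first library of 0 h (0.74 without the second). The brightest Rad21 region of HOXC, over site C-2, held 13.5 and 9.71 CPM and then 6.85 and 10.4, and that of HOXB, over site B-1, 20.3 and 12.7 and then 15.9 and 9.61; both overlapped between times.

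Jun signal in the clusters was low, and more of its regions fell than rose by 72 h, a split that one other scaling turned. Jun peaks shared by both libraries went the other way, numbering 7 before treatment, 1 after 6 h and 19 after 72 h. Over 72 h HOXA went from 0 to 3 of them, HOXB from 4 to 8, HOXC from 3 to 7 and HOXD from 0 to 1. With a −log10 q of at least 10 they numbered 2, 0 and 1. The 72 h libraries held 17245043 and 18883962 reads, against 7952946 and 8600736 before treatment. The part of read number in the peak counts was not tested. Of 41 regions tested, 15 fell and 2 rose by 72 h, against 25.7% and 28.0% of all 132947 regions (53.7% in either direction), and the medians were -0.56 and 0.17. By 6 h 5 had fallen and 2 had risen, against 12.2% and 13.1% (25.3% in either direction), and between 6 and 72 h 4 fell and 2 rose, against 13.5% and 12.7% (26.2% in either direction). The split at 72 h turned to 6 lower and 7 higher under total-count scaling, which moves the median of all Jun regions from 0.17 to 0.73, and was 17 and 2 under loess scaling and 11 and 1 with DESeq2. By cluster, HOXB summed to 105 and 114 CPM, then 70.6 and 72.6, then 55.6 and 52.1, and HOXC to 47.4 and 38.8, then 38.1 and 34.3, then 26.0 and 24.9. HOXA ran from 12.8 and 9.89 to 13.2 and 13.5 and then 21.9 and 20.4, and HOXD stood between 9.67 and 13.0 CPM throughout.

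The brightest Jun region of the clusters lay at the HOXB9 end, chr17:48626250-48626894, where the H3K27ac and Rad21 regions that fell also lie. It went from 24.8 and 29.4 CPM to 7.72 and 10.0 and then 6.18 and 5.48 (log2 fold changes -1.60 and -2.22, the latter with SE 0.20 and adjusted p = 3.8e-08). The authors' deposited table labels this region upLate, although its own log2 fold changes there are -1.55 at 6 h and -2.23 at 72 h. Between HOXB2 and HOXB3, chr17:48546950-48547771 went from 13.9 and 11.6 CPM to 4.54 and 3.10 and then 3.85 and 3.61 (-1.77 at 72 h, SE 0.24). Both fell in all 13 alternative fits. In HOXB4, chr17:48578251-48578618 fell from 6.42 and 8.74 CPM to 1.59 and 2.19 at 6 h, and stood at 1.95 and 2.50 at 72 h. In HOXC, the region shared by HOXC4, HOXC5 and HOXC6, chr12:54017721-54018922, went from 13.0 and 11.2 CPM to 7.04 and 6.02 and then 6.47 and 5.31 (-1.04, SE 0.23). The smallest called fall of HOXB, at chr17:48548113-48548564, was -0.93, and the largest of HOXC, at chr12:53938539-53938815 beside HOXC13, was -1.75. In HOXD, the called fall at chr2:176077274-176077510 ran from 2.04 and 2.15 CPM to 0.333 and 0.934, while the brightest region, chr2:176198836-176199384, stood between 1.82 and 2.72 CPM in all 6 libraries. The 3 calls of these weak regions were each lost in 3 of the 4 fits without a single library of 0 or 72 h.

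A few Jun regions rose. At chr7:27134264-27134806, in the HOXA3 span, 1.9 and 0.430 CPM became 1.59 and 1.82 and then 5.28 and 5.01 (log2 fold change 2.14, SE 0.44, adjusted p = 3.5e-04). At chr7:27135792-27136709, which overlaps CTCF site A-1, 7.0 and 7.02 CPM became 8.40 and 7.48 and then 11.8 and 10.6 (0.67, SE 0.22, adjusted p = 0.014), a call lost without any single library of 0 or 72 h. The 2 regions that rose at 6 h were chr17:48539111-48539577, from 3.65 and 2.29 CPM to 9.08 and 7.66, and chr12:53990121-53990672 in HOXC10, from 1.75 and 2.15 to 4.54 and 7.12, the latter not called without the second library of 6 h (1.13). Neither of those was called at 72 h. The HOXA site thus carried more CTCF, Jun and H3K27ac at 72 h in every library than at 0 h, at an H3K27ac level still near the floor of the table, while beside HOXB9 H3K27ac, Jun and Rad21 were lower in every library, and its weak CTCF region went from 1.27 and 1.44 CPM to 4.61 and 2.81, without a call.

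**Figure D4:**
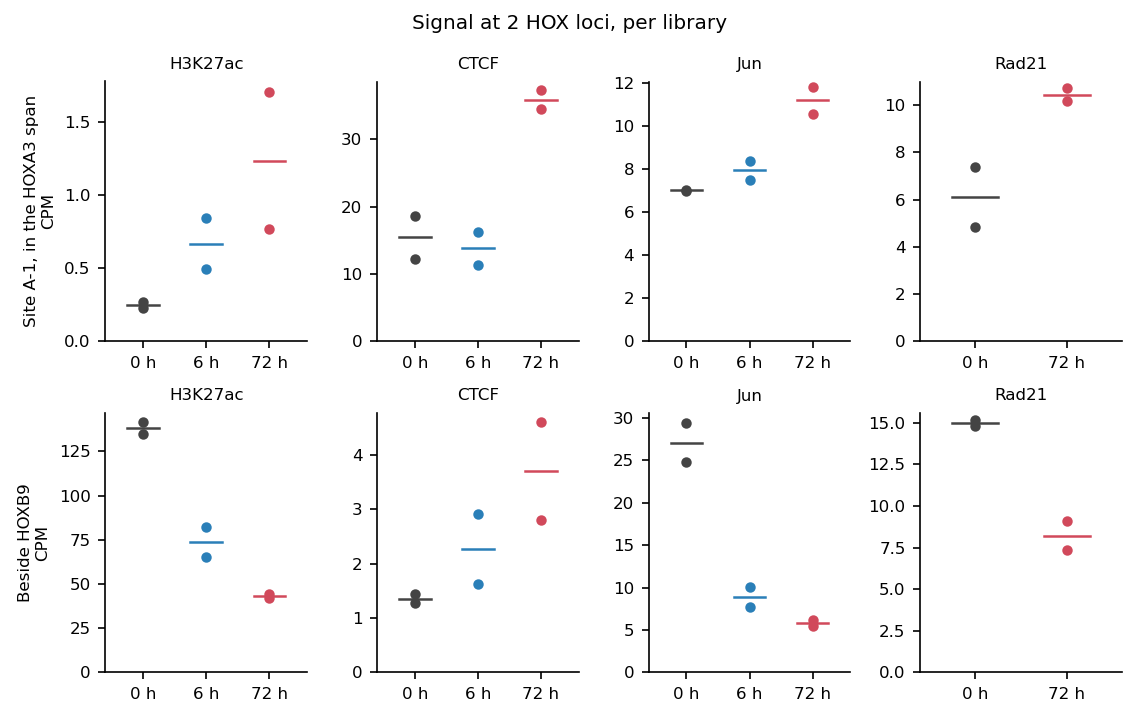
CPM per library (points) and group mean (bars) of the brightest region of each antibody over CTCF site A-1 in the HOXA3 span (upper row) and over the Jun region beside HOXB9 (lower row). At site A-1 the 72 h libraries lie above those of 0 h for all 4 antibodies, and beside HOXB9 H3K27ac, Jun and Rad21 lie below them while CTCF stays under 5 CPM.

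The genes that work with the clusters were read at their brightest H3K27ac region within 10 kb, with the shares of all regions given above (38.1% lower and 43.4% higher over 72 h) as background. That background includes dim regions and is not matched to brightest ones. Of 55879 regions with a mean count of at least 50, 23832 fell and 23779 rose over 72 h. Of the 9 cofactors of HOX proteins in the PBX, MEIS and PKNOX families, 4 rose and 3 fell by 72 h. MEIS3 rose from 0.272 to 21.5 CPM and PBX4 from 6.92 to 35.8 CPM, while PKNOX1 fell from 102 to 28.0 CPM and MEIS1, a partner of HOXA9 in leukemia, from 47.0 to 23.9 CPM (group means of 2 libraries). PBX2, with a log2 fold change of -0.70, turned to 0.12 with no call under loess scaling. Of 13 regulators of HOX genes, 11 had a region, of which 8 fell and 3 rose. Those that fell were MEN1 and 7 Polycomb genes, including EZH2, the methyltransferase subunit, from 74.6 to 33.7 CPM and EED, its partner, from 120 to 46.1 CPM. CBX2 and CBX8 share 1 region, which is counted for both, so a region within 10 kb need not belong to the gene named. The risers were CDX1, a homeobox activator of HOX genes, from 4.08 to 27.5 CPM, KMT2A, a histone methyltransferase that keeps HOX genes active, from 22.9 to 51.3 CPM, and DOT1L, from 41.8 to 69.4 CPM. Of 14 neighbours of the clusters, 7 had a region, and 3 rose and 2 fell. CALCOCO1, beside HOXC, rose from 17.3 to 74.3 CPM and MTX2, beside HOXD, fell from 55.0 to 28.1 CPM. The antisense RNA genes HOTAIR, HOTTIP and HOTAIRM1 had no H3K27ac region.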

How the data were processed

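CUT&RUN libraries of 4 antibodies in K562 cells were grouped by their titles. Per the file headers, the authors deposited for each antibody a table of whole-number read counts per region and library, with their own log2 fold changes and labels, and per library a peak list with a fold enrichment (a ratio) and a −log10 q-value per peak. Per the submitters' processing notes, tools were Trim Galore 0.4.3, BWA 0.7.17, SAMtools 1.9, deepTools 3.0.1, MACS2 and bedtools 2.26, and builds hg19 and hg38. Contig names and positions on chromosome 20, up to 64331078, place the files on GRCh38. How regions were merged and counted is not given in the sources used here.

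Regions were matched to RefSeq GRCh38.p14 gene spans, which give no exons here. Counts were fitted with edgeR 4.0.16 in R 4.3.3 (filterByExpr, TMM, quasi-likelihood test, all times of an antibody in 1 fit). CPM uses TMM library sizes. The fit was also run on simulated data with 200 regions changed 4-fold and the rest unchanged. That setting does not check the scaling for H3K27ac, where 81.5% of regions were called over 72 h. Peaks shared by both libraries overlapped by at least 1 base. Named by rule were, per cluster and antibody, the brightest region, the called regions with the largest and the smallest log2 fold change at 6 and 72 h, the CTCF sites, and called genes of the lists; other regions were chosen after their values were seen. Alternatives were DESeq2 1.42.0, other scalings, other filters, leaving out libraries, 0 or 25 kb extensions and a replicate block. Same-numbered libraries shared deviations weakly (r from -0.022 to 0.12 over regions) and the labels do not pair them, so the main fit held no replicate block. The members and lists were chosen with earlier results of these data known. Totals are reads in the counted regions only.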

Additional observations from a re-analysis of the deposited data

How the results depend on the processing

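Over all alternatives, 2025 of the values for single regions kept their side of the threshold and, where called, their direction, 147 lost the call, 27 gained one and 5 called values turned sign; values with no call on either side could turn sign within the 2025. The 5 were under loess scaling: 0.10 (6 against 0 h) and 0.20 (72 against 0 h) at chr12:53994697-53996505, and, at 72 against 0 h, 0.047 at chr17:48578177-48581000, -0.24 at chr2:176176017-176176278 and 0.12 at PBX2. The cause of the changes below was not tested, apart from alternatives that hold fewer regions or libraries. With 0 kb in place of 10 kb around the genes, fewer regions counted: 13, 21 and 13 H3K27ac calls (6 against 0, 72 against 0 and 72 against 6 h), 1 CTCF call (72 against 6 h), 4, 10 and 3 Jun calls and 1 Rad21 call. A mean count of at least 50 left 1 CTCF call at 72 against 0 h and 1 at 72 against 6 h, 4, 4 and 1 Jun calls and 1 Rad21 call. DESeq2 gave 1 CTCF call in each of those 2 contrasts, 1 Jun call at 72 against 6 h and 0 for Rad21. Loess scaling gave 10 Jun calls at 72 against 6 h, and total counts 6 Rad21 calls. Fits of only the compared times gave 5 CTCF calls at 72 against 0 h and 1 at 72 against 6 h. Leaving out 1 library gave 0 to 1 CTCF calls at 6 against 0 h, 0 to 5 at 72 against 0 h (0 without any 0 or 72 h library) and 0 to 2 at 72 against 6 h, 10 to 19 Jun calls at 72 against 0 h (10 without either 72 h library) and 0 to 9 at 72 against 6 h, and 0 to 2 for Rad21; the lone library of such an arm is assumed to vary like the others.

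Same-numbered libraries are not paired by the labels, and their deviations correlated weakly. For CTCF, r was 0.12, 0.080 and 0.10. Over all CTCF regions the replicate block raised the calls from 3951 to 7141 at 72 against 0 h and from 1266 to 2229 at 72 against 6 h. Whether same-numbered CTCF libraries share an effect was not tested. Among the HOX regions the replicate block gave 5 CTCF calls at 72 against 0 h in place of 3, and changed no other HOX count by over 1.5 times.

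Summed CPM (log2 ratio, 72 against 0 h) under total-count scaling was -0.65 for H3K27ac in HOXB and -0.30 in HOXC, and for CTCF 0.46 in HOXA, -0.20 in both HOXB and HOXC and 0.26 in HOXD. With 0 kb it was -0.62 and -0.65 for H3K27ac in HOXB and HOXC, and 0.33 and 0.22 for CTCF in HOXA and HOXD. Leaving out a library gave 2.18 to 2.83 for H3K27ac in HOXA and -0.62 to -0.25 for CTCF in HOXB. The HOXD ratio of H3K27ac had no value without replicate 1 of 0 h, since the other library holds 0 reads, or with 0 kb.

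Peaks of both libraries at a −log10 q of at least 10 numbered 12, 8 and 13 for H3K27ac over the 3 times, 2, 0 and 1 for Jun, and for Rad21 5 and 0. Overlap of at least 50% of each peak gave 8 for H3K27ac at 6 h and 11 for Jun at 72 h. Single libraries held 14 to 20 CTCF peaks at 6 h, 4 to 8 Jun peaks at 6 h, and 22 to 24 Rad21 peaks at 0 h and 8 to 9 at 72 h. The SEs of the HOX log2 fold changes over 72 h ran upward from 0.246 for CTCF and 0.26 for Rad21.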
